A study of Mus musculus with 6 samples.

Results

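The 9 genes described here are imprinted: H19, Igf2r, Meg3 and Rian, which are expressed from the maternal chromosome, and Igf2, Dlk1, Peg3, Peg10 and Snrpn, which are expressed from the paternal chromosome. They were chosen by symbol and matched to 9 of the 50686 mouse Ensembl identifiers counted in each library. The RNA came from embryoid bodies of mouse iPSCs (induced pluripotent stem cells) that had been reprogrammed from gingival fibroblasts. They were grown on SNL feeder cells, a mouse fibroblast line, which was removed by selective trypsin, and the embryoid bodies were treated with retinoic acid. After transfer to gelatin-coated dishes, 3 samples received intermittent compressive force (ICF) of 1.5 g per square centimetre at 0.23 Hz for 24 h in serum-free medium, and 3 control samples received no load. Titles number the samples of each group as donors 1 to 3, called replicates here. The strain, age and sex of the mice and the number of iPSC lines are not given in the sources used here.

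Genomic imprinting is the expression of a gene from the chromosome of a single parent, set by DNA methylation that is laid down in the egg or the sperm and kept through cell division. Imprinted genes lie in clusters, where an imprinting control region acts on several genes and often on a long noncoding RNA. In mouse iPSCs the imprint of the Dlk1-Dio3 cluster is known to be lost in some lines, which silences its maternally expressed noncoding RNAs. Total counts per gene do not separate the parental alleles, so "maternal" and "paternal" stand for the known direction of imprinting and not for an allele measured in these cells.

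Counts on genes summed to between 28711166 and 34194413 per sample. Replicate 3 stood apart in both groups. In ICF replicate 3, 89.0% of the nonzero counts could be divided by 4 without remainder. That share was 20.3% to 21.5% elsewhere, so the low counts of ICF replicate 3 are coarse. This library had 20802 genes above 0, against 24340 to 24889 in the others. Whether its reads were counted repeatedly was not tested. The share of reads that fell outside annotated genes was 6.24% and 6.04% in replicate 3 of control and ICF and 4.09% to 4.52% in the other libraries. Pluripotency genes were expressed in every sample, with Pou5f1 at a mean of 841 CPM in the control and 817 CPM under ICF. CPM is counts per 1000000 reads after TMM scaling. Of the 8 listed pluripotency genes, all tested, 7 had a log2 fold change below 0. Tdgf1, at means of 722 and 411 CPM, was lower under ICF (adjusted p = 0.0028, edgeR). It was the only 1 of the 8 to pass, where 4.38% of all tested genes were lower, and 0 were higher. Fibroblast markers, which would also mark feeder cells or mesenchyme, were low but present: the summed level of the 10 listed markers was 42.8 to 70.8 CPM in the control and 71.5 to 95.9 CPM under ICF, with 2 of the 8 tested (Col1a1 and Col3a1) higher under ICF, where 3.47% of all tested genes were, and 0 lower. Lum and Fap were at or near 0, with at most 4 and 2 reads. The part of such cells in the results below was not tested. The replicates are libraries labelled as separate donors, whereas the methods describe independent experiments, so p-values measure the spread between these samples, whatever its source.

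The 9 genes differed widely in expression. H19, Igf2 and Peg10 ranked among the highest genes of these cells. Snrpn, Peg3 and Igf2r were lower but still above 92.5%, 89.2% and 82.2% of the genes tested. Dlk1 was near the middle, and Meg3 and Rian were barely detected. Levels of different genes are compared as CPM per kilobase of merged exons, and are given here as the lowest, median and highest of the 6 samples. H19, a noncoding RNA that is abundant in embryonic tissues, had 122, 160 and 207 CPM per kilobase, above 98.6% of the genes tested. Igf2, a fetal growth factor of the insulin family, had 79.0, 87.7 and 138 CPM per kilobase, and Peg10, a protein derived from a retrotransposon and needed for the placenta, had 77.6, 87.2 and 114 CPM per kilobase. The ranges of Igf2 and Peg10 overlapped, and those of H19 and Igf2 overlapped across samples, although within each sample the level of H19 per kilobase was 150% to 185% of that of Igf2. Snrpn, which encodes the spliceosomal protein SmN, varied least, from 44.5 to 47.1 CPM per kilobase with a median of 45.1. Peg3, a zinc finger protein, had 27.5, 33.5 and 41.0 CPM per kilobase. Igf2r, the receptor that takes IGF2 to the lysosome for degradation, had 19.4, 20.8 and 22.8 CPM per kilobase. Dlk1, a transmembrane ligand-like protein of the Notch family, had 3.30, 4.37 and 5.31 CPM per kilobase and lay near the middle of all tested genes, above 50.4% of them. Neighbours in the order from Peg10 down to Meg3 did not overlap. Meg3 (0.00836, 0.0339 and 0.0846) and Rian (0.00498, 0.0245 and 0.0744 CPM per kilobase) overlapped each other and exceeded only 0.3% and 0.1% of the tested genes. These levels and ranks depend on the length used. Merged exons span 18089 bases for Meg3, 18234 for Rian and 5657 for Dlk1, against 14548, 8089 and 4653 in the longest transcript. Scaling by the longest transcript would give higher levels, most of all for Rian. Fewer expressing cells and less RNA per cell cannot be told apart in these bulk samples.

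**Figure D1:**
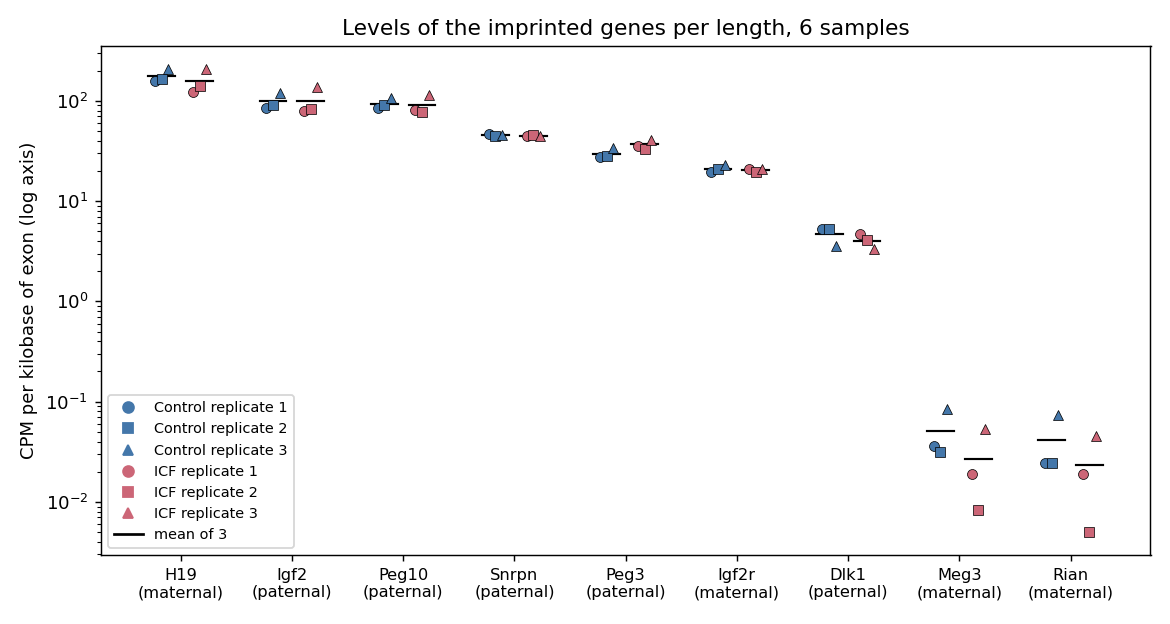
Level of each imprinted gene in CPM per kilobase of exon on a log axis, ordered by the mean over 6 samples, with control in blue, ICF in red, a symbol for each replicate and a black line for the mean of 3. The noncoding RNAs Meg3 and Rian lie below 0.1 CPM per kilobase in all 6 samples, while the other 7 genes lie above 3.

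Meg3, Rian and Dlk1 share the Dlk1-Dio3 cluster on chromosome 12 of GRCm38, Dlk1 at chr12:109452823-109463336, Meg3 at chr12:109541001-109571726 and Rian at chr12:109603940-109661716, all on the forward strand (all gene coordinates are GENCODE M21 on GRCm38). Meg3 had 19, 18 and 44 reads in control replicates 1, 2 and 3, and 12, 5 and 28 reads in the ICF replicates. The exact 95% Poisson intervals ran from 1.62 to 11.7 counts for the 5 reads of ICF replicate 2 and from 32.0 to 59.1 for the 44 reads of control replicate 3, and they cover counting error only. No interval is given for ICF replicate 3 because of its steps of 4. Rian, a long RNA that carries box C/D snoRNAs, had 13, 14 and 39 reads in the control and 12, 3 and 24 under ICF. Mirg, the next maternally expressed RNA of the cluster and a host of microRNAs, had between 1 and 5 reads per library. In contrast Dlk1 had 878, 933 and 581 reads in the control and 920, 760 and 540 under ICF. Per kilobase of exon, Meg3 reached 0.677%, 0.603% and 2.37% of the level of Dlk1 in control replicates 1 to 3 and 0.408%, 0.206% and 1.62% in the ICF replicates. The paternally expressed Rtl1, a gene derived from a retrotransposon, had 3 to 13 reads per library and did not pass the filter on low counts, as was the case for Mirg. Dio3, the thyroid hormone deiodinase at the far end of the cluster, had a mean of 0.944 CPM in the control and 1.30 CPM under ICF, and Begain, at the Dlk1 end, 3.06 and 2.12 CPM. Neither passed the test without the block (adjusted p = 0.48 and 0.22, edgeR), whereas for Begain the adjusted p was 0.033 with replicate number as a block (edgeR).

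**Figure D2:**
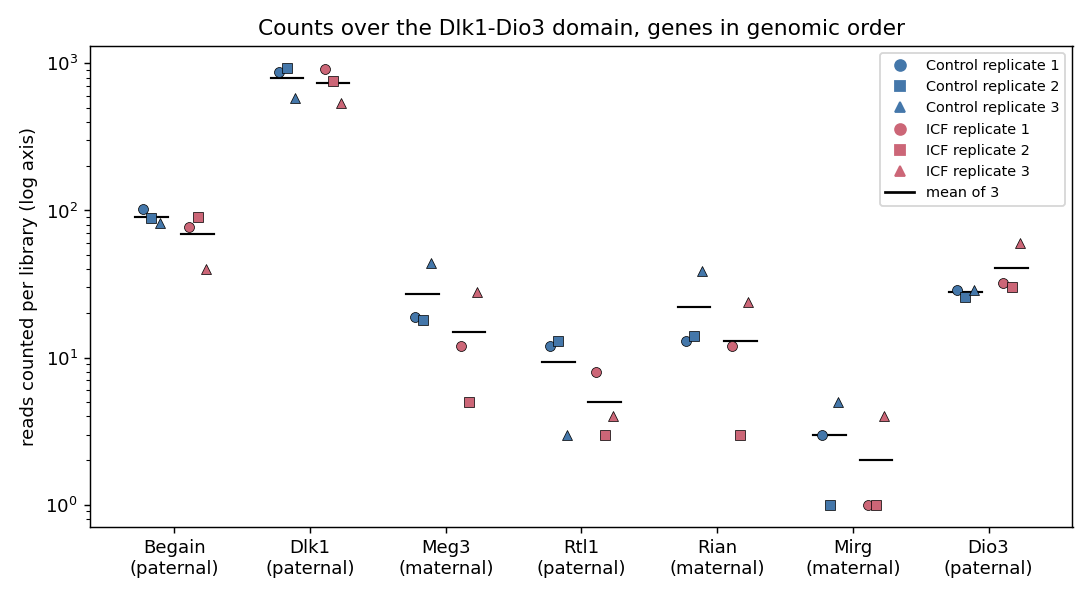
Reads counted per library (log axis) on 7 genes of the Dlk1-Dio3 cluster in genomic order, with control in blue, ICF in red, a symbol for each replicate and a black line for the mean of 3. Dlk1 has 540 to 933 reads in every library, whereas Meg3 and Rian have 3 to 44 and Mirg at most 5.

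The promoter windows of Dlk1 and Meg3 (RefSeq, GRCm38.p6, 250 bases before to 50 after the start) are shown because these neighbours in a cluster differ widely in level. Capitals mark 3 motifs, searched on both strands: TGCCGC (read GCGGCA on the other strand), the core site of the imprint-keeping factor ZFP57, TGACGTCA, a cAMP response element, and TATAAA.
Meg3, chr12:109540746-109541045, forward strand: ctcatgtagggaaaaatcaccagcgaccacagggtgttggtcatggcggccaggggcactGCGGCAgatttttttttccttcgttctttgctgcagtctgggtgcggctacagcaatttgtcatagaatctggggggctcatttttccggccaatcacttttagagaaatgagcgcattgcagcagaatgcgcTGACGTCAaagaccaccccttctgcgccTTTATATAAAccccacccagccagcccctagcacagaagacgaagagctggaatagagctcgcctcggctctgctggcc
Dlk1, chr12:109452573-109452872, forward strand: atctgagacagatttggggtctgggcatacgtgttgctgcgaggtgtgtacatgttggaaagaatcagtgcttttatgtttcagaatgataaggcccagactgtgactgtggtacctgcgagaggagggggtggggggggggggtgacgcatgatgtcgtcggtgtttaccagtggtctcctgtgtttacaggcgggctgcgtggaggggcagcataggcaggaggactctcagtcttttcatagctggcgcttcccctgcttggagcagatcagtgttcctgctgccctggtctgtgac
The Meg3 window at the annotated start of the gene held 1 TGCCGC, 1 TGACGTCA and 2 overlapping matches of TATAAA, the other of the 2 windows listed for Meg3, which begins within the gene, held none of the 3 and 1 CpG, and the Dlk1 window held none of the 3. Of 32851 promoter windows in the table, 11.6% held TGCCGC, 1.8% TGACGTCA and 13.6% TATAAA. The Meg3 window printed had 13 CpG dinucleotides and that of Dlk1 9, against a median of 7 over all windows. A match describes the letters of the reference, and neither binding nor methylation was measured in these cells.

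Meg3 and Rian are also hosts of microRNAs, and 3 hairpins within Rian give 6 mature microRNAs in RefSeq. Those of Rian are printed below with the seed (bases 2 to 8) in capitals, as those of the least expressed host among the 9 genes, followed by those of H19, the most abundant of the 9.
miR-341-5p: cGGUCGGCcgaucgcucgguc
miR-341-3p: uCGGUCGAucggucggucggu
miR-1188-5p: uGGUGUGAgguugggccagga
miR-1188-3p: uCCGAGGCuccccaccacacccugc
miR-370-5p: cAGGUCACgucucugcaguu
miR-370-3p: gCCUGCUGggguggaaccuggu
miR-675-5p: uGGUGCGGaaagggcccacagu
miR-675-3p: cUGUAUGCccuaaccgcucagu
No 2 of these 8 microRNAs share a seed. The microRNA genes of these hosts had 0 counts in all 6 libraries, and the mRNA libraries were not made to capture microRNAs, so mature microRNAs were not measured. Mir675 covers 84 of the 2460 exonic bases of H19 (3.4%), where a read would be ambiguous between both genes. For Rian and Meg3 the exonic bases shared with another gene of the same strand were 3.4% and 1.5%.

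ICF was compared with control by edgeR's quasi-likelihood test over all 16729 genes that passed the filter, with Benjamini-Hochberg adjustment over all of them. Log2 fold changes are ICF minus control, with their standard error (SE). All 9 imprinted genes were tested and 0 passed an adjusted p of 0.05, where 7.85% of all tested genes passed, 3.47% higher and 4.38% lower under ICF. At an unadjusted p under 0.05 there was 1 of the 9, Peg3, against 25.6% of all genes. In 0 of the 9 genes were the groups free of overlap, against 31.4% of all genes. Of the 9 log2 fold changes, 2 were above 0 and 7 below, with a median of -0.05, beside 0.00 for all genes. The titles give both groups the same donor numbers. With replicate number as a block, 4 of the 9 passed, 1 higher and 3 lower, where the background is much larger too, at 29.9% of all genes, 14.6% higher and 15.3% lower. With DESeq2 in place of edgeR 1 passed, Peg3, of the 7 that had an adjusted p (Meg3 and Rian had none), where 13.9% of the genes with an adjusted p did. Without replicate 3 of both groups, a removal chosen after seeing the data, 5 of 9 passed, against 30.1% of all genes.

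Peg3 had the smallest adjusted p of the 9. Its level was 366, 378 and 447 CPM in control replicates 1 to 3 and 477, 445 and 547 CPM under ICF, and it was higher under ICF in 3 of 3 same-numbered pairs. The groups overlapped by a small margin, since control replicate 3 exceeded ICF replicate 2. The log2 fold change was 0.30 (SE 0.12, adjusted p = 0.095, edgeR), and blocking on replicate number gave an adjusted p of 1e-05 (edgeR). Without control replicate 3 the log2 fold change was 0.40 and passed (adjusted p = 0.032, edgeR), and over the alternatives tried the adjusted p of edgeR and DESeq2 ran from 1e-05 to 0.3. Other genes of the Peg3 cluster did not pass. Usp29, a paternally expressed deubiquitinase gene next to Peg3, was at 11.5 and 13.5 CPM in control and ICF (adjusted p = 0.22, edgeR). The others were the zinc finger gene Zim1 and Zfp264, annotated as a transcribed pseudogene (adjusted p = 0.93 and 0.8, edgeR).

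H19 and Igf2 lie next to each other on chromosome 7, H19 at chr7:142575529-142578143 and Igf2 at chr7:142650766-142666816, both on the reverse strand, and compete for shared enhancers. H19 had 385, 405 and 510 CPM in the control and 301, 345 and 510 CPM under ICF. Replicates 1 and 2 were lower under ICF and replicate 3 was at the same level in both groups. The log2 fold change was -0.17 (SE 0.26, adjusted p = 0.61, edgeR). It was -0.19 with the replicate block (adjusted p = 0.0061, edgeR). It was -0.29 without replicate 3 of both groups, a removal chosen after seeing the data (adjusted p = 0.00075, edgeR). Leaving out single libraries without the block moved it between -0.42 (without ICF replicate 3) and -0.01 (without ICF replicate 1). Igf2 had 484, 520 and 688 CPM in the control and 452, 474 and 790 CPM under ICF, so replicate 3 was the highest of each group, and it was higher under ICF while replicates 1 and 2 were lower. Its log2 fold change was 0.02 (SE 0.30, adjusted p = 0.97, edgeR), and its sign turned to -0.12 without replicate 3 of both groups. The log2 ratio of H19 to Igf2 CPM within each sample was -0.33, -0.36 and -0.43 in the control and -0.59, -0.46 and -0.63 under ICF. All ICF samples were below all controls, by 0.18 (SE 0.06). A two-sided exact permutation test gave p = 0.1, which 3 against 3 samples cannot go below. Ins2, the neighbour of Igf2, had at most 2 reads in any library.

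In the Dlk1-Dio3 cluster, Meg3 had 0.650, 0.575 and 1.53 CPM in the control and 0.346, 0.151 and 0.967 CPM under ICF. ICF was lower in 3 of 3 pairs, yet the groups overlapped, since ICF replicate 3 exceeded control replicates 1 and 2. The log2 fold change of Meg3 was -0.94 (SE 0.86, adjusted p = 0.38, edgeR), and -0.99 with the replicate block (adjusted p = 0.035, edgeR). Rian was likewise lower in 3 of 3 pairs, with a log2 fold change of -0.85 (SE 1.01, adjusted p = 0.48, edgeR), and missed the threshold with the block too (adjusted p = 0.093, edgeR). At 3 to 44 reads per library, only large changes of these RNAs are detectable. The 28 and 24 reads of ICF replicate 3 are multiples of 4, and whether reads of that library were counted repeatedly was not tested. With the counts of that library divided by 4, the log2 fold changes of Meg3 and Rian were -1.44 and -1.34 (adjusted p = 0.15 and 0.24, edgeR). Leaving out single libraries moved the log2 fold change of Meg3 between -1.84 (without ICF replicate 3) and -0.36 (without control replicate 3) and that of Rian between -1.73 (without ICF replicate 3) and -0.12 (without control replicate 3). Dlk1 had 30.0, 29.8 and 20.2 CPM in the control and 26.5, 23.0 and 18.6 CPM under ICF, lower in 3 of 3 pairs. Its log2 fold change was -0.23 (SE 0.24, adjusted p = 0.44, edgeR, and 0.02 with the replicate block), and ran from -0.40 without control replicate 3 to -0.10 without ICF replicate 3. The log2 ratio of Meg3 to Dlk1, at -5.53, -5.70 and -3.72 in the control and -6.26, -7.25 and -4.27 under ICF, differed by -0.94 (SE 1.08, exact two-sided permutation test, p = 0.4). This difference ran from -1.77 without ICF replicate 3 to -0.28 without ICF replicate 2, and was -0.15 with 1 CPM added to both genes. The log2 ratio of Rian to Meg3 was -0.36 ± 0.19 (SD, n = 3) in controls and -0.32 ± 0.38 (SD, n = 3) under ICF (exact two-sided permutation test, p = 1.0).

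Igf2r, Peg10 and Snrpn did not pass under either edgeR design on all 6 samples. Igf2r, at chr17:12682406-12769664 on the reverse strand, had 180, 194 and 212 CPM in the control and 194, 182 and 193 CPM under ICF, a log2 fold change of -0.04 (SE 0.07, adjusted p = 0.75, edgeR). The control samples spanned the ICF samples. Airn, the paternally expressed antisense RNA that silences Igf2r on its own chromosome, was at 1.47 and 1.61 CPM (adjusted p = 0.84, edgeR), and Slc22a2 and Slc22a3 of the same cluster had at most 12 reads. Peg10, at chr6:4747306-4760517 on the forward strand, had 561, 602 and 715 CPM in the control and 537, 517 and 763 CPM under ICF. Its log2 fold change was -0.05 (SE 0.21, adjusted p = 0.88, edgeR). With the removal of replicate 3 of both groups, chosen after seeing the data, it was -0.14 (adjusted p = 0.034, edgeR). Snrpn was the steadiest, with 102, 96.1 and 98.5 CPM in the control and 96.1, 99.4 and 96.0 CPM under ICF, a log2 fold change of -0.02 (SE 0.03, adjusted p = 0.83, edgeR).

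Snrpn spans chr7:59982495-60140219 on the reverse strand, in the Prader-Willi cluster, where its promoter is part of the imprinting centre. Of 4 windows listed for Snrpn, the one printed held a TGCCGC, shown in capitals, as did 1 of 4 windows of Igf2.
Snrpn, chr7:60005150-60005449, reverse strand, RefSeq, GRCm38.p6: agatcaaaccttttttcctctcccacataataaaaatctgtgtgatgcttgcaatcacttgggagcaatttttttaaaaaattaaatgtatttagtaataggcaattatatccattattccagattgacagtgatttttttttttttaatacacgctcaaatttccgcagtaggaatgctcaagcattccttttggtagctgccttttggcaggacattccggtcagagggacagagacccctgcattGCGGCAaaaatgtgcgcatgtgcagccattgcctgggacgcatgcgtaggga
Snurf, which shares its transcript with Snrpn, had 0 counts in all 6 libraries: 216 of its bases are exonic bases of Snrpn, and in all 27.3% of the exonic bases of Snrpn are shared with annotated genes of the same strand, where reads are left uncounted. Snhg14, the long RNA downstream of Snrpn, had 79.0, 75.5 and 122 CPM in the control and 89.9, 77.3 and 124 CPM under ICF, so replicate 3 was highest in both groups, and its adjusted p was 0.86 (edgeR). The paternally expressed Ndn, Magel2, Mkrn3 and Peg12 and the maternally expressed Ube3a of this cluster had log2 fold changes from -0.04 to 0.22, and did not pass (adjusted p from 0.62 to 1.0, edgeR).

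**Figure D3:**
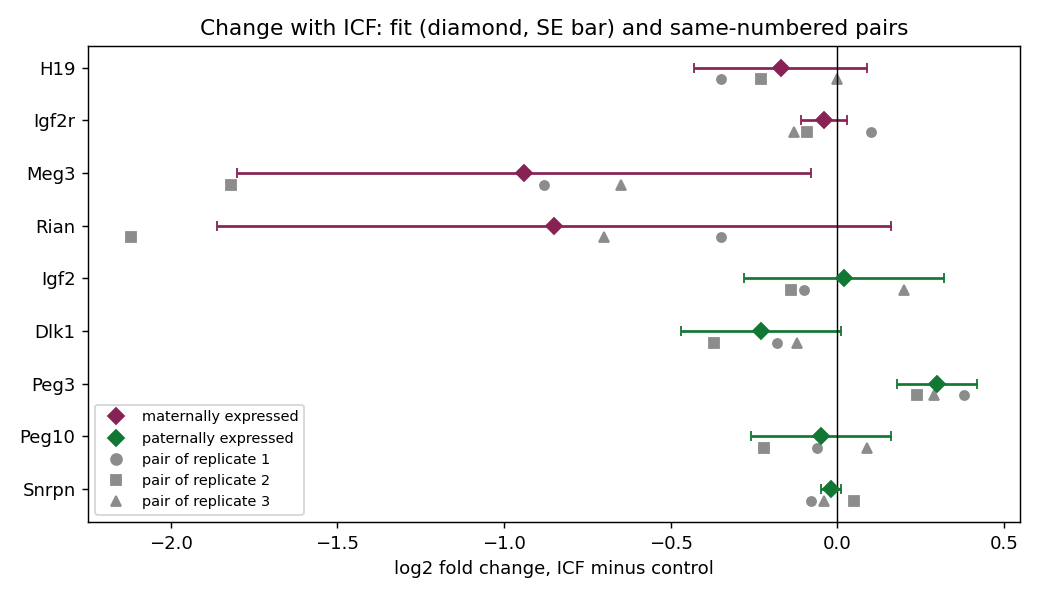
Log2 fold change of ICF minus control for each gene (diamonds, with bars of 1 standard error, n = 3 per group), maternally expressed genes in purple and paternally expressed genes in green, with the differences of the 3 same-numbered pairs in grey. All 4 maternally expressed genes lie below 0, Igf2r at -0.04 only, with pairs of Meg3 between -1.82 and -0.65. Peg3 is the member with the largest value above 0, at 0.30.

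By parental origin, all 4 maternally expressed genes had a log2 fold change below 0, as did 8292 of all 16729 tested genes. Their median of -0.51 lies between H19 (-0.17) and Rian (-0.85), and Meg3 and Rian had only 3 to 44 reads per library. Igf2r was at -0.04, and its sign turned in 2 of 13 alternatives. Of the 5 paternally expressed genes 2 were above 0 and 3 below, with a median of -0.02. With the block 2 of the 4 maternal genes fell, H19 and Meg3, and of the paternal genes Peg3 rose and Dlk1 fell, where 14.6% of all genes rose and 15.3% fell. The summed level per kilobase of the maternally expressed genes, most of it H19, was 41.4%, 41.7% and 42.6% of that of all 9 genes in control replicates 1 to 3 and 37.0%, 39.6% and 40.1% under ICF. The share was 3.03 percentage points lower under ICF (SE 1.03), without overlap between the groups (two-sided, exact permutation p = 0.1, again the lowest possible). Leaving out single samples moved this difference between -3.63 and -2.07. The 9 genes are not replicates of parental origin, since H19 and Igf2 share a cluster, as do Meg3, Rian and Dlk1.

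Replicate 3 also differed from the others for most of the 9 genes. It lay above both other replicates of its group, in control and in ICF alike, for 6 of them: H19, Meg3, Rian, Igf2, Peg3 and Peg10. The share of all tested genes with this order was not counted, so the order is not shown to be particular to imprinted genes. Compared with the mean of replicates 1 and 2, replicate 3 was 2.5 times as high for Meg3 in the control and 3.89 times under ICF, and 3.04 and 3.80 times for Rian. For Igf2 the ratios were 1.37 and 1.71, for H19 1.29 and 1.58, for Peg10 1.23 and 1.45 and for Peg3 1.2 and 1.19. Dlk1 was the only member lower in replicate 3 of both groups, at 0.68 and 0.75 times the mean of the others, so that within the Dlk1-Dio3 cluster the maternal RNAs and Dlk1 differed in opposite directions. Igf2r and Snrpn showed neither pattern. These values are descriptions, as replicate 3 was known to stand apart. Beside them, the summed fibroblast markers were lower in replicate 3, at 42.8 CPM against 64.0 and 70.8 CPM in the control and 71.5 against 95.9 and 85.2 CPM under ICF, and so were the summed pluripotency markers, at 3284 against 3911 and 3920 CPM and 2951 against 3282 and 3292 CPM. The summed endoderm markers, 433 to 494 CPM, and mesenchyme markers, 185 to 202 CPM and mostly Pdgfra, showed no such order in both groups. Not every marker followed its sum. Zfp42 was highest in replicate 3 of both groups, Tdgf1 and Col3a1 in ICF replicate 3, and Thy1 in control replicate 3. Between the groups, 2 of the 8 endoderm markers (Sox17 and Amn) were lower under ICF, where 4.38% of all tested genes were, and 0 were higher. Of the 6 mesenchyme markers 0 passed. Whether cell composition or the larger share of reads outside genes had a part in the pattern of replicate 3 was not tested.

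**Figure D4:**
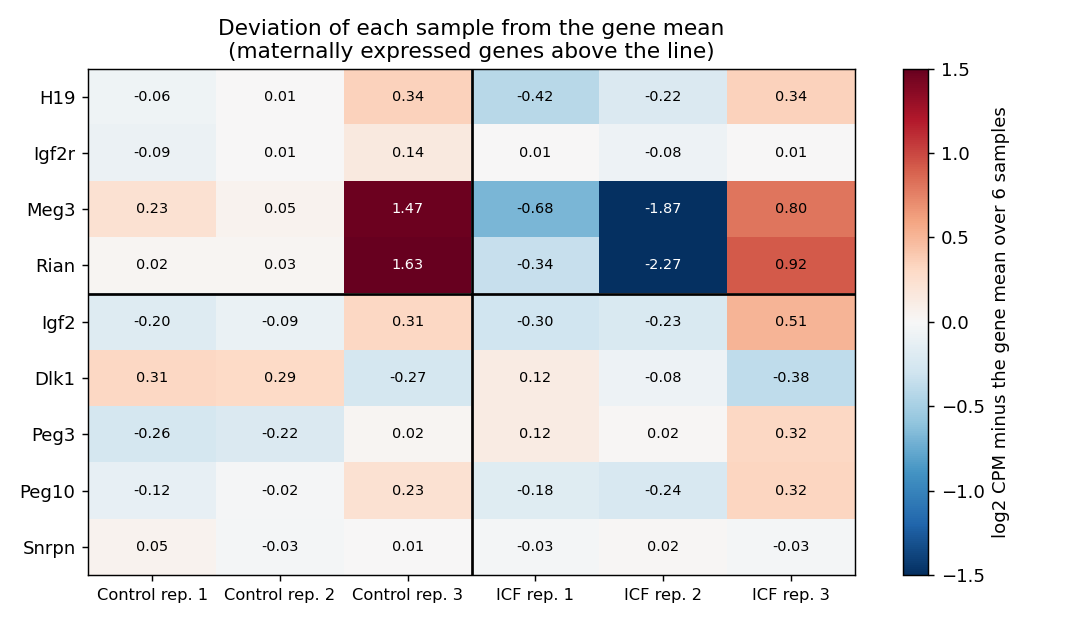
Deviation of each sample's log2 CPM from the gene's mean over 6 samples, printed in each cell and coloured from blue (lower) to red (higher) with colours held at 1.5 either way; maternally expressed genes are above the horizontal line. Replicate 3 of both groups is red for Meg3 (1.47 and 0.80) and Rian (1.63 and 0.92) and blue for Dlk1 (-0.27 and -0.38).

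Among 52 other imprinted genes, 39 were tested, of which 1 was higher and 3 lower under ICF, beside 7.85% of all tested genes that passed, and the median log2 fold change was 0.01. All 4, of mixed direction, were among the 18 tested genes that are listed as maternally expressed, where 7.85% of all tested genes passed. The other 21 are listed as paternally expressed. With the replicate block, 2 of these 21 were higher and 2 lower, and 2 of the 18 were higher and 6 lower. Of all genes, 14.6% were higher and 15.3% lower with the block. Grb10, an adaptor that restrains insulin and IGF receptor signaling, was at 486, 487 and 456 CPM in the control and 408, 399 and 350 CPM under ICF, a log2 fold change of -0.30 (SE 0.08, adjusted p = 0.038, edgeR). Copg2, a coat protein gene next to Mest, was at 92.0, 95.1 and 83.1 CPM in the control and 70.8, 68.6 and 66.0 CPM under ICF, and fell by 0.40 on the log2 scale (adjusted p = 0.013, edgeR). In the Peg10 cluster, Ppp1r9a, an actin-binding scaffold, fell by 0.48 (adjusted p = 0.026, edgeR), and Calcr, the calcitonin receptor, rose by 0.92 on the log2 scale from 20 to 29 reads per library to 44 to 53 (adjusted p = 0.04, edgeR). The 44 reads of Calcr are those of ICF replicate 3, whose counts are mostly multiples of 4. Sgce and Asb4 of that cluster were lower in 3 of 3 pairs but did not pass (adjusted p = 0.11 and 0.15, and 0.016 and 0.035 with the block, edgeR), and Tfpi2 had at most 14 reads. These calls depended on single libraries: without control replicate 1, control replicate 2 or ICF replicate 1, 0 of the other imprinted genes passed, and without ICF replicate 2 there was 1. With the replicate block 12 of the 39 passed, 4 higher and 8 lower, a share near the 29.9% of all genes.

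IGF2 acts through the IGF1 and insulin receptors and is held by binding proteins outside the cell. Of 16 genes of this pathway, 14 were tested, 1 was lower under ICF and 0 were higher, a share near the 7.85% of all genes, and their log2 fold changes had a median of -0.02. The gene that fell was Igfbp2, a secreted IGF-binding protein, with 600, 547 and 378 CPM in the control and 197, 225 and 202 CPM under ICF, a log2 fold change of -1.29 (SE 0.21, adjusted p = 0.0022, edgeR). Igf1r and Insr, the signaling receptors, were at 60.2 and 34.2 CPM in the control and 56.6 and 32.0 CPM under ICF (adjusted p = 0.55 and 0.52, edgeR). The RNA-binding proteins Igf2bp1 and Igf2bp2, which bind Igf2 mRNA, had log2 fold changes of 0.21 and -0.23 and did not pass without the block (adjusted p = 0.063 and 0.086, edgeR). With it both passed (adjusted p = 0.0012 and 0.00094, edgeR), and 4 of the 14 did in all, near the 29.9% of all genes.

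All 7 genes listed here under imprint maintenance were expressed and had log2 fold changes above 0, as had 8437 of all 16729 tested genes. The values ran from 0.04 (Dnmt1) to 0.46 (Zfp445), with a median of 0.18. Of the 7 genes 1 rose, where 3.47% of all genes did. That was Ctcf, the insulator protein that binds between H19 and Igf2, with 164, 181 and 182 CPM in the control and 211, 203 and 214 CPM under ICF, a log2 fold change of 0.25 (SE 0.05, adjusted p = 0.044, edgeR). This call was lost when any library other than control replicate 3 was left out. Zfp57, which protects methylated imprints, was at 358 CPM in the control and 423 CPM under ICF (adjusted p = 0.072, edgeR), and Zfp445, of the same role, at 95.9 and 132 CPM (adjusted p = 0.057, edgeR). With the block 5 of the 7 were higher, beside 14.6% of all genes, and the maintenance methyltransferase Dnmt1 was not among them (adjusted p = 0.61, edgeR).

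For each member the genes with the most similar levels over the 6 samples were sought among 11914 tested genes averaging 100 or more counts, by Pearson's r of log2 CPM, as a description of 6 libraries of which replicate 3 sets much of the spread. The nearest gene was Setd3 for H19 (r = 0.997), Lrch2 for Igf2 (0.998), Ttc37 for Igf2r (0.992), Klhdc7a for Meg3 (0.994), Pdcd10 for Rian (0.996), Gga1 for Dlk1 (0.989), Apaf1 for Peg3 (0.999), Ate1 for Peg10 (0.996) and Tssc4 for Snrpn (0.986). The second nearest were Ewsr1, Btbd7, Akap9, Impad1, Fndc3a, Ankrd46, Socs4, Piwil2 and A130010J15Rik in the same order. Meg3 and Rian averaged fewer than 100 counts and were themselves not among the genes searched.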

How the data were processed

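RNA sequencing of 6 samples (3 control, 3 ICF) used strand-specific mRNA libraries read as single 75-cycle reads. The authors filtered reads with Trimmomatic, aligned them with HISAT2 and deposited whole-number counts per gene made with HTSeq, without normalization. The submitters' processing notes list the builds GRCm38 and hg38, and the annotation is not given in the sources used here. Reads without a unique position, or ambiguous between genes, do not enter such counts. Lines naming no gene held 38.1% to 40.3% of each file and were left out. GENCODE M21 (GRCm38) held 50376 of 50686 identifiers and gave symbols, coordinates and exon lengths. All genes passing filterByExpr were tested with edgeR 4.0.16 (TMM, glmQLFit, glmQLFTest) in R 4.3.3, and the procedure was tested on simulated data. Standard errors come from the SDs of log2 CPM (prior count 0.5). Alternatives were DESeq2 1.42.0, RLE size factors, looser and stricter filters, the replicate block, ICF replicate 3 divided by 4, and each sample left out. The removal of replicate 3 of both groups was chosen after seeing the data. The block rests on the donor numbers in the titles. Deviations of same-numbered samples correlated across genes with r of 0.13, 0.17 and 0.32, those of other pairs with -0.31 to 0.23. Control replicate 1 was closer to ICF replicate 2 (0.23) than to ICF replicate 1 (0.13). Control replicate 2 was about as close to ICF replicate 1 (0.15) as to ICF replicate 2 (0.17). These values therefore do not settle whether replicates 1 and 2 are pairs. Named genes were the members, listed genes of their clusters, listed genes past the threshold, and the 2 genes most like each member. Members and lists were chosen with earlier results of these data known.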

Additional observations from a re-analysis of the deposited data

How the results depend on the processing

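Of the 9 imprinted genes, 1 passed with DESeq2 and with the filter of 1 count in any sample, 4 with the replicate block, 5 without replicate 3 of both groups, and 0 to 1 when single samples were left out. Other imprinted genes gave 12 with the block and 13 without replicate 3, and 0 to 5 over left-out samples. IGF2 pathway genes gave 3 with DESeq2, 4 with the block, 4 without replicate 3, and 1 to 2 over left-out samples. Imprint maintenance genes gave 3 with DESeq2, 2 with ICF replicate 3 divided by 4, 3 with the looser filter, 5 with the block, 3 without replicate 3, and 0 to 3 over left-out samples. Over all genes the count was 1313 in the main fit (7.85%). It was 2052 with DESeq2 (13.9%), 5006 with the block (29.9%) and 5093 without replicate 3 (30.1%). With ICF replicate 3 divided by 4 it was 1542, with the looser filter 1860, and over left-out samples 300 to 1652. The counts of the gene lists are to be read beside these. The sign of Igf2 turned with the block (-0.01) and without replicate 3 (-0.12), and over left-out samples its log2 fold change ran from -0.28 to 0.19. That of Igf2r was 0.01 without replicate 3 and ran from -0.10 to 0.02, that of Peg10 from -0.24 to 0.06, and the Rian to Meg3 ratio from -0.12 to 0.25. The cause of these changes was not tested. Meg3 and Rian were not tested with the filter of 10 counts in every sample and had no adjusted p with DESeq2. The within-pair tests of the 4 ratios could not go below an exact p of 0.25. Counts of 3 to 44 reads limit Meg3 and Rian.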
